A study of Homo sapiens with 8 samples.

Results

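The effect of the compound that the labels call Go was measured in CAL-27, a line of squamous cell carcinoma cells of the head and neck. The samples were chosen by their titles. They are the 2 arrays of Go-treated cells and the 3 arrays of untreated control cells, 5 of the 8 arrays of the series. The fit of the 12730 genes tested used all 8 arrays. Cells were grown in DMEM with FBS, deprived of serum for 24 h and then treated for 24 h. Serum deprivation was common to the control, Go and enzastaurin arrays, so no array shows cells kept in serum. The 3 remaining arrays are from cells given enzastaurin at 10 µM. The series title groups both agents as inhibitors of protein kinase C, which it spells PCK. The dose of Go and its full name are not given in the labels, and no vehicle is named for the controls. CAL-27 is a single established line. Whether the arrays of a group came from separate cultures is not stated in the labels. The tests reflect variation within the groups of the 8 arrays alone, which could be technical.

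Protein kinase C is a family of serine and threonine kinases that act downstream of receptors that produce diacylglycerol. In squamous epithelium its isoforms take part in the switch from basal to differentiating keratinocyte, in the control of AP-1 transcription factors and in the output of cytokines and matrix metalloproteases. The aryl hydrocarbon receptor is a transcription factor switched on by small aromatic ligands, and its classical target genes are CYP1A1 and CYP1B1. These statements are background and not results of these arrays.

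Each array was hybridised with RNA of 1 sample labelled with 1 dye. Levels are given as normalised intensity on the log2 scale, where a difference of 1 is a 2-fold change, and a level cannot be compared between genes because it depends on the probe. A gene was called when its adjusted p in the limma fit of all 8 arrays was under 0.05. Each SE and p therefore draws on the spread of the enzastaurin arrays too. Those differed from each other with a root mean square of 0.119 to 0.162 over genes. For the controls it was 0.201 to 0.35, and for the Go arrays 0.349. With the 5 control and Go arrays alone 385 genes were called. Between 52.1% and 57.3% of probes were above background on an array. The number of arrays limits the precision, with 2 arrays of Go, and a value near background is less certain.

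The arrays stood in an order that bears on every result. By the spot coordinates in the scanner tables, controls 1, 2 and 3 and Go 1 occupied positions 1 to 4 of 1 slide, and Go 2 and the 3 enzastaurin arrays occupied positions 1 to 4 of another. The first principal component, with 76.3% of the variance, was -47.9, -40.4 and -20.7 for controls 1 to 3, 0.183 for Go 1 and 22.5 for Go 2, and 27.2 to 30.6 for enzastaurin. Along the first slide it rose with position. The second component, with 9.9% of the variance, set Go apart: it was -20.1 and -14.5 for the Go arrays, -3.25 to 9.18 for the controls and 8.3 to 9.89 for enzastaurin. Control 3, the neighbour of Go 1, was the control nearest to Go for 59.7% of all genes and for 77.7% of called genes. Go 1 differed from control 3 with a root mean square of 0.299 over genes, less than the 0.35 between controls 1 and 3. The part of slide position in the differences cannot be told apart from treatment on the first slide, where Go 1 alone lay at position 4.

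**Figure D1:**
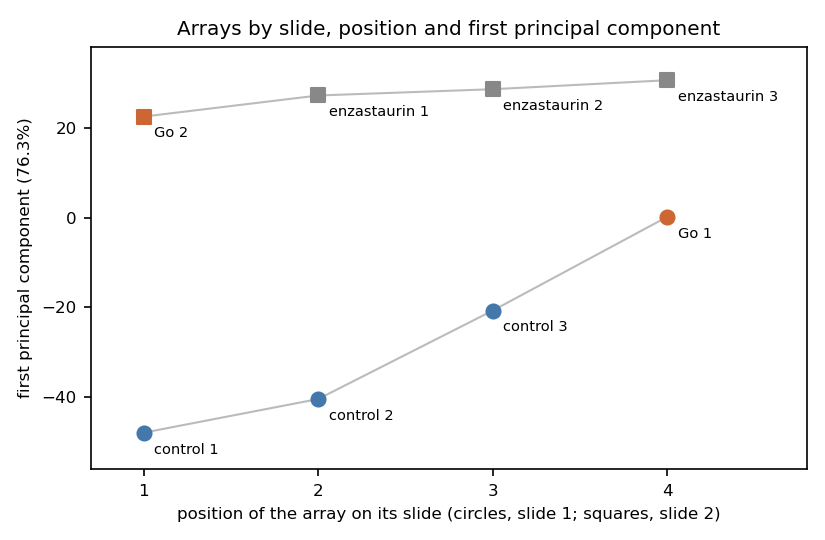
Score of each array on the first principal component (vertical axis, no unit) against its position on the slide (horizontal axis), with circles for slide 1, squares for slide 2, blue for control, orange for Go and grey for enzastaurin. The score rises along slide 1 from -47.9 for control 1 to 0.183 for Go 1, and lies between 22.5 and 30.6 on slide 2.

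Of the 12730 genes, 4055 were called in Go against control (31.9%), with 1478 higher in Go (11.6%) and 2577 lower (20.2%). The median difference over all genes was -0.10. Counts of list members are given to be read against these shares, 11.6% higher and 20.2% lower, and this median. Of the calls, 462 were changed at least 2-fold (3.63%), 263 of them higher and 199 lower. The Go and control arrays did not overlap for 7305 genes (57.4%). A further fit with each of the 5 control and Go arrays left out in turn called 588 genes throughout (4.62%), 376 higher and 212 lower. With the slide as a block, where the estimate rests on Go 1 against the controls of its own slide, 833 genes were called (6.54%), and 727 of them had the same direction in the fit without the block (5.71%). With both slide and position as terms 153 genes were called. That fit used a position slope shared by both slides, drawn from the control and enzastaurin arrays. It can therefore under-correct a rise along the first slide that the enzastaurin arrays do not share. A fit with control 3 as the only control was also run. Without control 2 the count was 1009, and without control 1 it was 1988. The fit without Go 2 gave the same estimates as the slide block, so it is not a separate check.

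**Figure D2:**
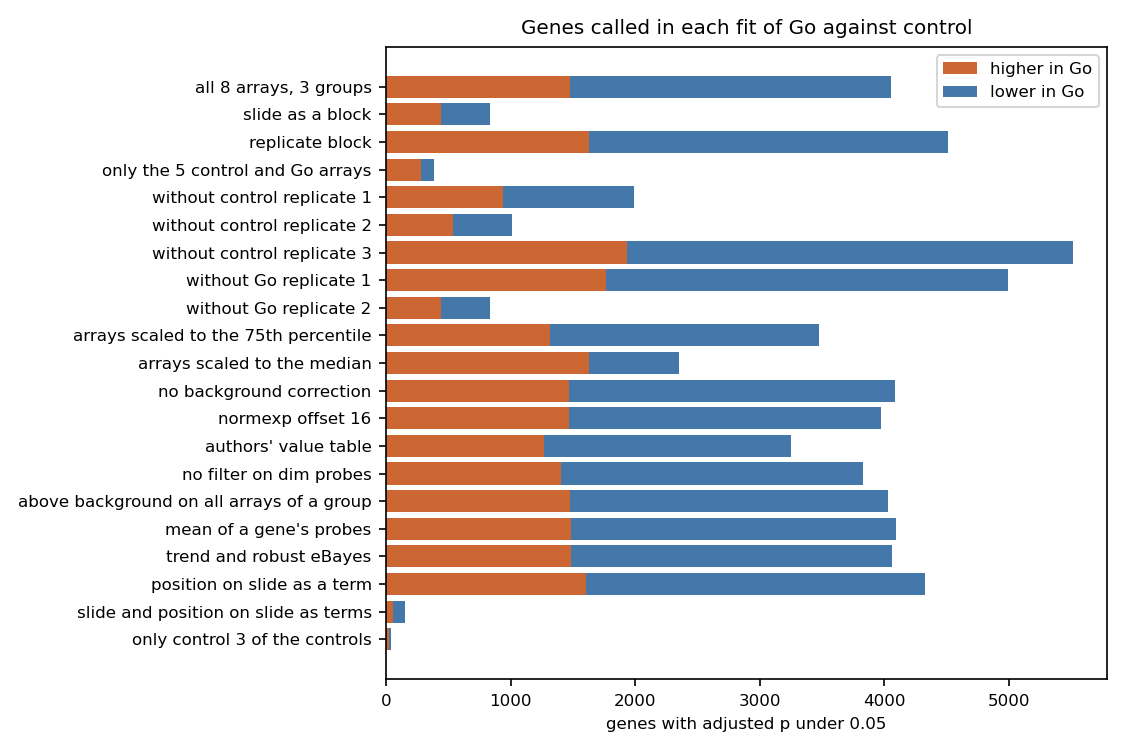
Number of genes with an adjusted p under 0.05 (horizontal axis) in each of 21 fits of Go against control, split into genes higher (orange) and lower (blue) in Go. The count is 4055 with all 8 arrays and falls to 833 with the slide as a block and to 153 with slide and position as terms.

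There were 17 genes called in all 21 fits, 12 of them higher and 5 lower in Go. They were singled out after their values were seen. The rises include CYP1A1 and CYP1B1, enzymes that oxidise aromatic compounds and are classical targets of the aryl hydrocarbon receptor. They also include the histone genes H1-4, H3C8 and H2BC11, the metallothionein MT1G, the netrin receptor gene UNC5B, the short-chain dehydrogenase DHRS2, the sialyltransferase ST6GALNAC1, and 3 genes with many close relatives in the genome, PABPC3, TUBB8 and ACTBL2. The falls are FGFBP1, whose secreted product releases fibroblast growth factors from the matrix, SH2D5, an adaptor with an SH2 domain, DBP, a clock-controlled transcription factor, KLF16, a Kruppel-like factor, and UTS2R, the urotensin receptor gene. In bulk RNA, a change in the number of cells of a state and a change in RNA per cell cannot be told apart.

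CYP1A1 was at 7.88, 7.85 and 7.86 on the control arrays and at 9.74 and 9.45 on the Go arrays. The controls agreed within 0.03 and lay far below both Go arrays. The difference was 1.73 (SE 0.116, adjusted p = 0.00105), a 3.31-fold rise, and it was 1.87 on the first slide alone. The probe was above background on 2 of the 3 controls and on both Go arrays. CYP1B1, a related enzyme, was at 9.59, 9.86 and 10.06 in controls and at 11.39 and 11.64 in Go, a rise of 1.68 (SE 0.147, adjusted p = 0.00209). Its controls rose from position 1 to position 3, and the Go arrays lay above all of them. It was still called with slide and position as terms, at 1.22 (adjusted p = 0.0113), and CYP1A1 at 1.95 (adjusted p = 0.00147). The position slope in that fit was shared with the enzastaurin slide, so a rise along the first slide may not be fully removed.

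DHRS2 was at 8.11, 8.04 and 7.74 in controls and at 9.25 on each Go array, a rise of 1.29 (SE 0.115, adjusted p = 0.00209). Its controls fell along the slide, with control 3 the lowest. Go 1 alone lay at position 4, so position and treatment cannot be told apart for it. ST6GALNAC1, which adds sialic acid to mucin-type sugar chains, was at 6.97, 6.97 and 6.72 in controls and at 7.59 and 7.58 in Go, a rise of 0.70 (SE 0.0943, adjusted p = 0.00482). UNC5B was at 8.99, 9.26 and 9.68 in controls and at 11.03 and 11.22 in Go, a rise of 1.81 (SE 0.181, adjusted p = 0.00292). Its controls climbed along the slide, and the gap from control 3 to Go 1 was larger than the whole range of the controls.

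Of the falls, FGFBP1 had the tightest arrays. It was at 13.20, 13.19 and 13.22 in controls and at 12.36 and 12.37 in Go, and fell by 0.84 (SE 0.0716, adjusted p = 0.00209). SH2D5 was at 11.06, 11.003 and 11.18 in controls and at 10.33 and 10.18 in Go, and fell by 0.82 (SE 0.0878, adjusted p = 0.00303). In both genes the Go arrays lay below every control by more than the controls spread. DBP was at 8.64, 8.85 and 8.56 in controls and at 7.72 and 7.63 in Go, and fell by 1.01 (SE 0.0992, adjusted p = 0.00281). KLF16 was at 14.50, 14.69 and 14.21 in controls and at 12.94 and 12.96 in Go, and fell by 1.52 (SE 0.133, adjusted p = 0.00209). UTS2R was at 14.64, 14.72 and 14.08 in controls and at 11.93 and 12.38 in Go, and fell by 2.32 (SE 0.201, adjusted p = 0.00209).

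**Figure D3:**
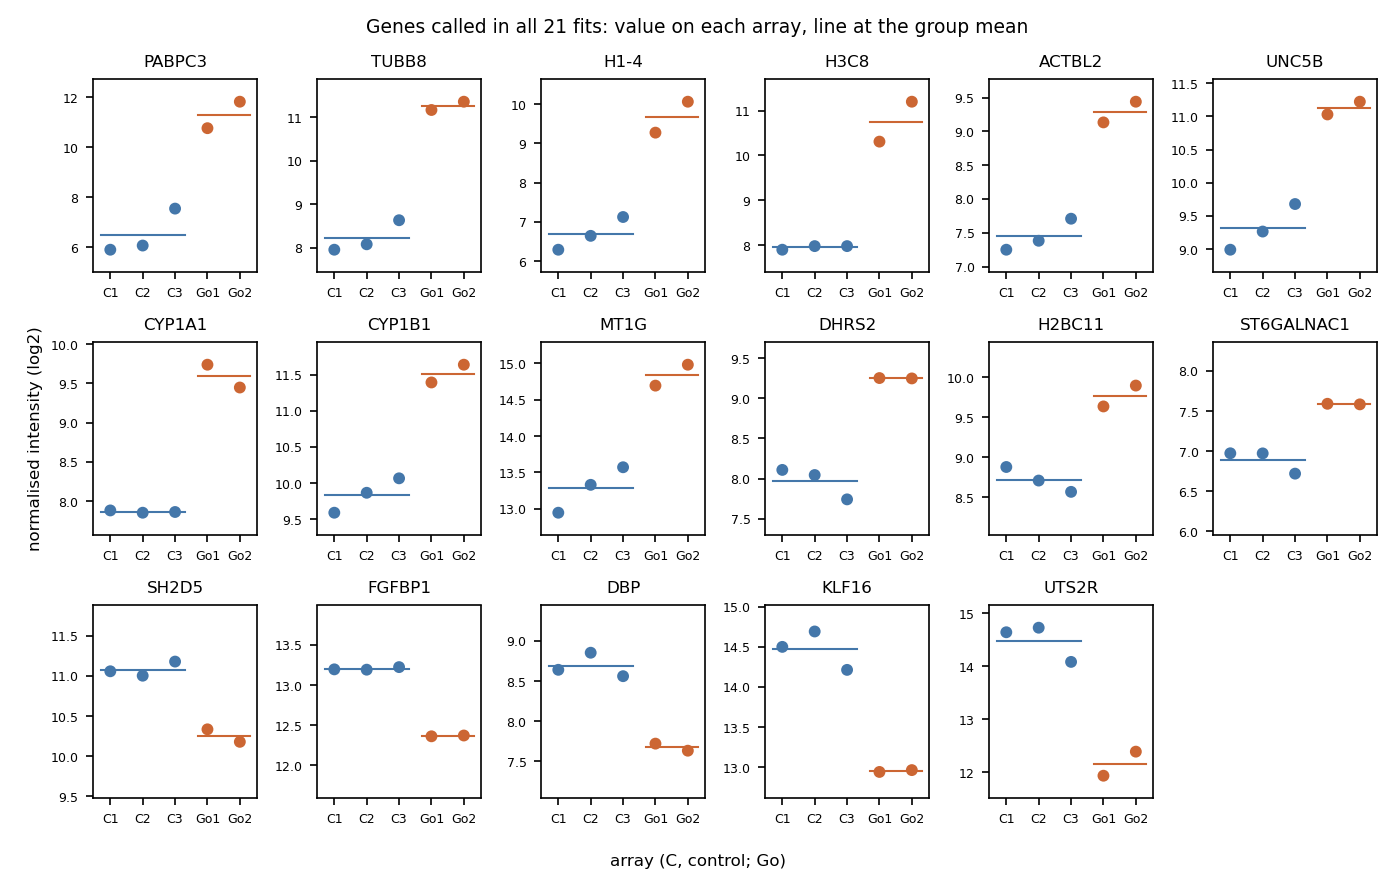
Normalised intensity (log2, vertical axes) on each control array (C1 to C3, blue) and each Go array (orange) for the 17 genes called in all 21 fits, with a line at each group mean. The Go arrays lie above all controls in 12 panels and below all controls in 5, and the controls of CYP1A1, FGFBP1 and H3C8 are the flattest of the panels.

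A direct comparison of Go with enzastaurin in the same fit, added after the data were seen, called 1066 genes (8.37%), and 1005 (7.89%) with the slide as a block. CYP1A1 was at 8.04, 7.73 and 7.90 on the enzastaurin arrays, where its probe was not well above background on any array. It was at least 3.26-fold higher in Go (adjusted p = 0.000475). DHRS2 was at 7.82, 7.74 and 7.67 with enzastaurin, and Go was higher by 1.51 (SE 0.115, adjusted p = 0.000676). ST6GALNAC1 was higher in Go by 0.88 (SE 0.0943, adjusted p = 0.0019). The enzastaurin levels of DHRS2 lay close to that of its lowest control, and those of CYP1A1 lay on both sides of its controls.

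SH2D5 was lower in Go than with enzastaurin, with a difference of -0.99 (SE 0.0878, adjusted p = 0.00117), and FGFBP1 was lower with a difference of -0.64 (SE 0.0716, adjusted p = 0.00239). In this comparison the slide block gave the same estimates as the fit without Go 1, with Go 2 alone against enzastaurin. It is therefore not a separate check, and Go 2 alone lay at position 1 of that slide. CYP1A1, DHRS2, ST6GALNAC1, SH2D5 and FGFBP1 were also called in every fit without 1 Go or enzastaurin array. By contrast, PABPC3, TUBB8, ACTBL2, H1-4, H3C8, UNC5B, MT1G, CYP1B1, DBP, KLF16 and UTS2R were not called between Go and enzastaurin. H2BC11 was called, at 0.45 (SE 0.117, adjusted p = 0.0494), but in only 1 of the fits without 1 Go or enzastaurin array. For CYP1B1 the difference was 0.50 (SE 0.147, adjusted p = 0.0706), with enzastaurin at 10.96, 10.92 and 11.15. The doses cannot be matched, because that of Go is not given.

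The list of aryl hydrocarbon receptor targets held 13 tested genes, of which 3 were higher and 3 lower, with a median of 0.10 beside -0.10 over all genes. After CYP1A1 and CYP1B1 the third to rise was SLC7A5, an amino acid transporter that also stands in the ATF4 list. CYP1A2, the hepatic relative of CYP1A1, was at 10.23, 10.23 and 9.74 in controls and at 9.23 and 8.42 in Go, and fell by 1.24 (SE 0.229, adjusted p = 0.0101). SERPINB2, which encodes an inhibitor of plasminogen activators, fell by 0.28 and the cell-surface gene LYPD3 by 0.77. The list did not move as a whole. Of the 11 list members found in the RefSeq table of promoters (GRCh38.p14, 250 bases before to 50 after the gene start), 3 held the receptor's core motif TNGCGTG on either strand, but none of the 5 called members found there did, and 5.51% of all 27305 promoters held it. Among promoters of tested genes 7.33% held it. CYP1B1 has no entry in that promoter table and was not searched, and neither was sequence further from the start of any gene.

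Histone genes had the largest share called higher of the 41 lists. Of 26 tested members, which encode core histones and linker H1, 17 were higher in Go and none lower, against 11.6% higher and 20.2% lower over all genes. The median was 0.66, and it stayed between 0.56 and 0.81 under median scaling, slide block, and slide with position. Under those settings 20, 17 and 7 members were higher, and with the slide as a block 1 was lower. Most members are transcribed in S phase and end without a poly(A) tail, while H2BC21 can be made outside S phase. H3C8, an H3 gene, was at 7.90, 7.98 and 7.98 in controls and at 10.31 and 11.20 in Go, a rise of 2.80 (SE 0.21, adjusted p = 0.0018). Both of its probes rose, and no control came near either Go array.

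H1-4, a linker histone gene, was at 6.29, 6.65 and 7.13 in controls and at 9.27 and 10.06 in Go, a rise of 2.98 (SE 0.266, adjusted p = 0.00209). H2BC8, an H2B gene, was at 7.5, 7.75 and 8.07 in controls and at 9.26 and 9.43 in Go, a rise of 1.57 (SE 0.153, adjusted p = 0.00281). H2BC21 was at 8.96, 9.04 and 9.11 in controls and at 9.93 and 10.15 in Go, a rise of 1.01 (SE 0.102, adjusted p = 0.00303). For these 3 genes the groups did not overlap, and the controls rose from position 1 to 3, by 0.83 for H1-4 and 0.57 for H2BC8. The H1-4 probe was above background on 1 of the 3 controls and the H3C8 probe on 2. H4C2, an H4 gene, was not well above background on any control and was at 8.31 and 12.30 in Go. It was at least 16.6-fold higher in Go, the mean of both Go arrays against the lowest measurable signal, and the Go arrays lay far from each other. Histone genes are near-identical within a class, so a probe may read several of them, and single gene names in this list are uncertain.

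Promoters of the S-phase histone genes carry CCAAT boxes, and these are shown because 13 of the 16 called members found in the promoter table held one. The motif CCAAT was searched on either strand, and 35.7% of all promoters in the table held it. Among all 24 list members found, 21 held it. The windows run from 150 bases before to 30 bases after the gene start in the direction of transcription, from RefSeq on GRCh38.p14, with each match in capitals.
H3C8, chr6:26271384-26271563, minus strand: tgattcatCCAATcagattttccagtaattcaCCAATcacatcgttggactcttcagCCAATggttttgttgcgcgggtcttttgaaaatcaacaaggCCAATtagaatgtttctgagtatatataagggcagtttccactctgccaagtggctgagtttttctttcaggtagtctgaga
H1-4, chr6:26156179-26156358, plus strand: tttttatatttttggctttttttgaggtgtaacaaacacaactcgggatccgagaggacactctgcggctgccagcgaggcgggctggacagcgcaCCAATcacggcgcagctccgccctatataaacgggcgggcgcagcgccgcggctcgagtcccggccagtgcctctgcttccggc
H2BC8, chr6:26216659-26216838, minus strand: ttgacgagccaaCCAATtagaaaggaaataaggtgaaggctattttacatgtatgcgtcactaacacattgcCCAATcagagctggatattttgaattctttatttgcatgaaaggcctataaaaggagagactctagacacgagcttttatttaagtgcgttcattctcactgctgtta
The H3C8 window held 4 matches, at 142, 118, 93 and 52 bases before the start. H1-4 held 1, at 54 bases before the start, and H2BC8 held 2, at 138 and 78. A match describes the letters and not a bound factor.

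The DNA replication list, whose genes encode the helicase, polymerases, clamp loaders and licensing factors that also act in S phase, moved the other way. Of 42 tested members, 22 were lower in Go and none higher, with a median of -0.29. Clamp loader subunit RFC4 was at 11.90, 11.85 and 11.85 in controls and at 11.14 and 11.47 in Go, and fell by 0.56 (SE 0.115, adjusted p = 0.0131). RFC3 was at 9.68, 9.44 and 9.40 in controls and at 8.96 and 8.69 in Go, and fell by 0.68 (SE 0.113, adjusted p = 0.0076). MCM3, a subunit of the replicative helicase, fell by 0.48 (SE 0.0938, adjusted p = 0.0115), and CCNE1, the cyclin that starts S phase, by 0.49 (SE 0.0956, adjusted p = 0.0115). Of the 22, 2 were called with the slide as a block, and 4 members were lower under median scaling, where the list median was -0.12.

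Other cell cycle genes were mixed. Among 36 mitosis genes 5 were higher and 3 lower, and the proliferation marker MKI67 was not called, at 0.12. Of 19 G1 cyclins and inhibitors, 6 were higher and 2 lower. CDK6, the kinase partner of D cyclins, was at 9.79, 9.89 and 10.60 in controls and at 11.44 and 11.47 in Go, a rise of 1.36 (SE 0.209, adjusted p = 0.00647). CCND1, which encodes cyclin D1, was not called, at -0.10. RBL1, which encodes the pocket protein p107, fell by 0.44 (SE 0.0852, adjusted p = 0.0116). CDKN1B, the p27 gene, had a probe called higher and another called lower, and no direction is given for it.

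Genes of the amino acid response, which ATF4 switches on when amino acids are short or when eIF2 is phosphorylated, were higher more often than lower among those called. Of 28 tested members 9 were higher, 1 lower and 18 not called, a share of 35.7% called beside 31.9% of all genes, with a median of 0.20, and of 0.34 with the slide as a block. ASNS, which makes asparagine, was at 11.56, 11.51 and 11.67 in controls and at 12.30 and 12.21 in Go, a rise of 0.67 (SE 0.0833, adjusted p = 0.00403). NUPR1, a stress-induced chromatin protein gene, was at 9.08, 8.78 and 8.59 in controls and at 9.89 and 9.83 in Go, a rise of 1.04 (SE 0.169, adjusted p = 0.00718). ATF3, a transcription factor gene downstream of ATF4, was at 8.30, 8.28 and 8.47 in controls and at 9.20 and 9.23 in Go, a rise of 0.87 (SE 0.1, adjusted p = 0.00337). In all 3 genes the Go arrays lay together and above every control.

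PSAT1, an enzyme of serine synthesis, was at 11.54, 11.33 and 11.44 in controls and at 11.99 and 12.05 in Go, a rise of 0.58 (SE 0.0846, adjusted p = 0.00579). These 4 genes were called in each fit without 1 array and with the slide as a block, though with slide and position as terms no member of the list was. SLC7A5, TRIB3, PSPH, STC2 and CEBPG rose by 0.30 to 0.62 and were called less steadily. Against enzastaurin, Go was higher for ASNS by 0.73 (SE 0.0833, adjusted p = 0.00246), for NUPR1 by 1.10 (SE 0.169, adjusted p = 0.0079) and for SLC7A5 by 0.79 (adjusted p = 0.0041). PSAT1 and ATF3 were not called in that comparison, at 0.18 and 0.35. Among 20 aminoacyl-tRNA synthetases, several of which respond to ATF4, 5 were higher and 1 lower. NARS1, which charges the asparagine tRNA, was at 9.71, 9.73 and 9.82 in controls and at 10.71 and 11.41 in Go, a rise of 1.31 (SE 0.171, adjusted p = 0.00467), with no overlap between groups.

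The amino acid response element was searched as TGATGNAA on either strand. It stood in the promoters of 5 of 23 list members found in the table and in 2 of the 8 called ones, beside 3.67% of all promoters. The window of ASNS, a gene with a well-known element of this kind, is shown with the match in capitals, at 68 bases before the start.
ASNS, chr7:97872379-97872558, minus strand: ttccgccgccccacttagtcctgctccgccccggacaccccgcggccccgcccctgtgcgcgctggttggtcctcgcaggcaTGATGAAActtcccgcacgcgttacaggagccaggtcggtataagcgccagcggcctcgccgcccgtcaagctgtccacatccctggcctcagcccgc

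Of 34 interferon-response genes 12 were higher in Go and none lower, with a median of 0.33. Under median scaling 17 were higher and the median was 0.49, while with the slide as a block 4 were higher and 1 lower. MX1, a GTPase that blocks virus replication, was at 12.69, 12.60 and 12.78 in controls and at 14.03 and 14.50 in Go, a rise of 1.57 (SE 0.173, adjusted p = 0.00303). HERC5, the ligase that attaches ISG15, was at 6.99, 7.02 and 7.21 in controls and at 8.23 and 8.53 in Go, a rise of 1.31 (SE 0.129, adjusted p = 0.00281). RSAD2, the viperin gene, was at 8.24, 8.40 and 8.60 in controls and at 9.39 and 9.80 in Go, a rise of 1.18 (SE 0.174, adjusted p = 0.00602). For each of them control 3 was the highest control and still lay below Go 1, by 1.25 for MX1 and 0.79 for RSAD2.

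XAF1, a pro-apoptotic gene of this group, was at 9.65, 9.56 and 9.47 in controls and at 10.34 and 10.32 in Go, a rise of 0.77 (SE 0.164, adjusted p = 0.0141). The other 8 called members, among them IFIT2, OASL, OAS3 and USP18, rose by 0.34 to 0.65 and none of them was called in every fit without 1 array. Go and enzastaurin levels of MX1, RSAD2, XAF1 and HERC5 were not called as different, at -0.05, 0.05, 0.42 and 0.44, but HERC5 was called with the slide as a block, at 0.59 (adjusted p = 0.0456). In the MHC class I list 3 of 20 were higher, and their probes may read related class I genes.

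The interferon-stimulated response element was searched as 2 copies of GAAA separated by 2 bases, on either strand. It stood in 17 of 26 list promoters found and in 6 of the 9 called ones, beside 3.65% of all promoters. MX1 and HERC5 are shown as called genes with matches close to the start, in capitals.
MX1, chr21:41420408-41420587, plus strand: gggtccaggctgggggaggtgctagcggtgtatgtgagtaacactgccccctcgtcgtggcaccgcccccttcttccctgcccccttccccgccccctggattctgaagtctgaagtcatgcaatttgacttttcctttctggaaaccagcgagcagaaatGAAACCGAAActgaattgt
HERC5, chr4:88456969-88457148, plus strand: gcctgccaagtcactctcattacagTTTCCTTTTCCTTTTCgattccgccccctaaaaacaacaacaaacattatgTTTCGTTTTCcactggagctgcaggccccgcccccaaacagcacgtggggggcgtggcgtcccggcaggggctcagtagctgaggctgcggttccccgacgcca
The MX1 match began 11 bases past the start. HERC5 held 3 matches, which began 125, 119 and 74 bases before the start, and the first pair overlap.

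**Figure D4:**
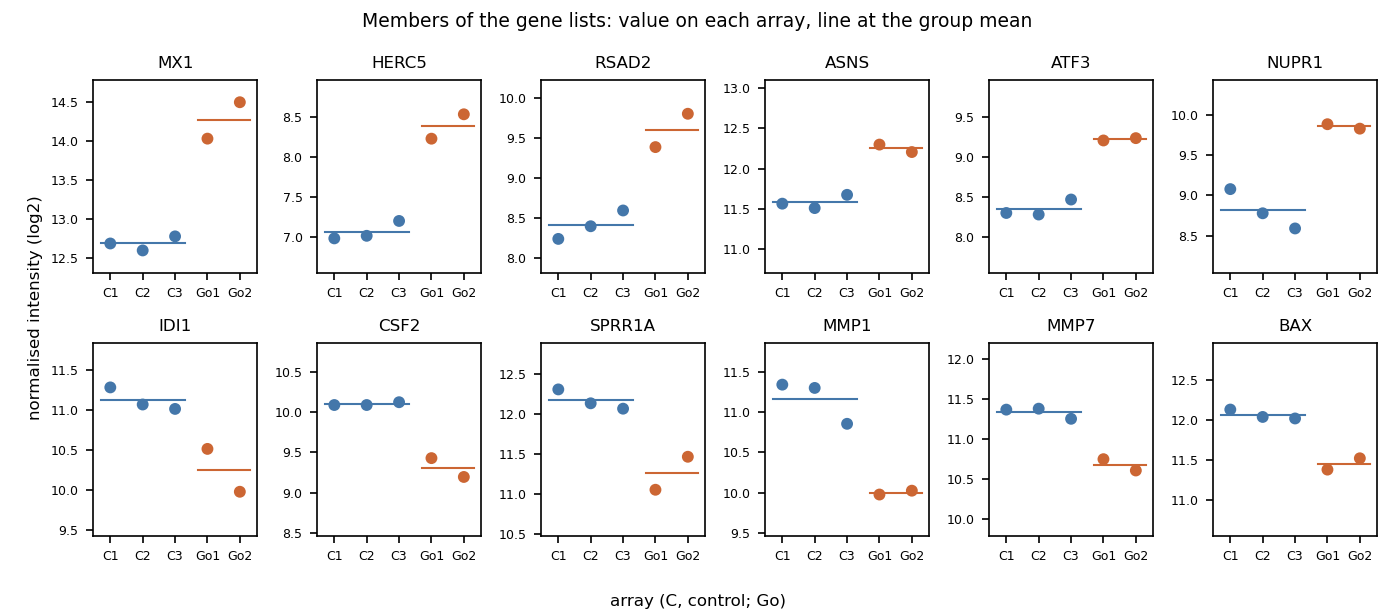
Normalised intensity (log2, vertical axes) on each control array (C1 to C3, blue) and each Go array (orange) for 12 named members of the gene lists, with a line at each group mean. Members of the interferon and ATF4 lists in the upper row lie higher in Go, and the cholesterol, cytokine, cornified envelope, metalloprotease and BCL2 members in the lower row lie lower.

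Of 28 chemokine, cytokine and prostaglandin genes 11 were higher and 4 lower. CXCL8, the neutrophil chemokine, was at 6.04, 6.94 and 8.98 in controls and at 10.82 and 10.52 in Go, a rise of 3.35 (SE 0.668, adjusted p = 0.0123). Its probe was above background on 2 of the 3 controls. The controls alone spanned 2.94 on the log2 scale, in the order of the slide, and CXCL8 was not called with the slide as a block (adjusted p = 0.0561). CCL28, a mucosal chemokine, was at 7.15, 7.48 and 7.57 in controls and at 8.16 on each Go array, a rise of 0.76 (SE 0.119, adjusted p = 0.00688). Against enzastaurin CCL28 was higher in Go by 0.77 (adjusted p = 0.00822). PTGS2, which encodes the inducible cyclooxygenase, was at 7.12, 7.04 and 7.03 in controls and at 7.47 and 7.51 in Go, a rise of 0.43 (SE 0.0733, adjusted p = 0.00829).

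The 4 lower genes of that list were the chemokine gene CCL2 and the cytokine genes IL18, IL36G and CSF2. CSF2, which encodes GM-CSF, was at 10.09, 10.09 and 10.13 in controls and at 9.43 and 9.19 in Go, and fell by 0.79 (SE 0.0964, adjusted p = 0.00391). It was also lower than with enzastaurin, with a difference of -0.54 (SE 0.0964, adjusted p = 0.014), but not in every fit without 1 Go or enzastaurin array was this called. IL36G, an epithelial cytokine of the IL-1 family, was at 9.47, 9.25 and 9.06 in controls and at 8.52 and 8.13 in Go, and fell by 0.93 (SE 0.151, adjusted p = 0.00718). CSF2 had flat controls, while those of IL36G fell along the slide.

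Metallothioneins, small proteins that bind zinc and copper, were higher for 5 of 12 tested members and lower for none. MT1G was at 12.95, 13.33 and 13.57 in controls and at 14.70 and 14.98 in Go, a rise of 1.56 (SE 0.169, adjusted p = 0.00303). A second, dimmer probe of MT1G was called lower, so the probes disagree. MT1M was at 7.11, 7.75 and 8.49 in controls and at 11.13 and 13.37 in Go, a rise of 4.47 (SE 0.58, adjusted p = 0.00467), with 2 of the 3 controls above background. MT1A was at 13.74, 13.71 and 13.89 in controls and at 14.52 and 14.83 in Go, a rise of 0.89 (SE 0.106, adjusted p = 0.00386). The MT1 genes are near-identical copies, and which of them a probe read is uncertain.

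Matrix metalloproteases and their inhibitors were lower for 8 of 19 tested members and higher for none, beside 20.2% lower and 11.6% higher over all genes, with a median of -0.26 beside -0.10. Under median scaling 5 were lower, and with the slide as a block 2. MMP1, interstitial collagenase, was at 11.35, 11.30 and 10.86 in controls and at 9.98 and 10.02 in Go, and fell by 1.17 (SE 0.14, adjusted p = 0.00387). MMP7, matrilysin, was at 11.36, 11.38 and 11.25 in controls and at 10.75 and 10.61 in Go, and fell by 0.65 (SE 0.0935, adjusted p = 0.00546). Both were called in each fit without 1 array, of which the slide block repeats the one without Go 2.

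The same pair differed strongly from enzastaurin. MMP1 was at 11.42, 11.31 and 11.38 with enzastaurin, and the difference of Go from it was -1.37 (SE 0.14, adjusted p = 0.00163). MMP7 was at 12.34, 12.21 and 12.13 with enzastaurin, above every control, and the difference of Go was -1.55 (SE 0.0935, adjusted p = 0.000285). MMP3, MMP9, MMP12, MMP13, MMP14 and ADAM8 fell by 0.29 to 0.56 and none was called in every fit without 1 array. TLL2, an astacin protease of the BMP1 family, is outside the list and was chosen after its values were seen. It fell by 0.78 from control (SE 0.0887, adjusted p = 0.00325) and differed by -1.75 from enzastaurin (adjusted p = 0.000185). With enzastaurin TLL2 was at 9.04, 9.10 and 9.28, above the controls at 8.18, 8.16 and 8.18.

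In the plasminogen system 6 of 13 genes were lower and 1 higher. F3, tissue factor, was at 9.09, 9.16 and 9.38 in controls and at 10.15 and 10.14 in Go, a rise of 0.93 (SE 0.125, adjusted p = 0.00482). SERPINE2, which encodes protease nexin 1, fell by 0.45 (SE 0.084, adjusted p = 0.0107) and was lower than with enzastaurin with a difference of -0.94 (adjusted p = 0.0012). PLAUR, the urokinase receptor gene, fell by 0.72 (SE 0.168, adjusted p = 0.0179). None of the 6 lower genes, SERPINE2 and PLAUR among them, was called with the slide as a block or in every fit without 1 array.

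Cholesterol synthesis genes and other SREBP2 targets were lower for 10 of 26 members and higher for 1, with a median of -0.29. Under median scaling 4 were lower and 1 higher, with a median of -0.15. IDI1, isopentenyl diphosphate isomerase, was at 11.28, 11.07 and 11.01 in controls and at 10.52 and 9.98 in Go, and fell by 0.87 (SE 0.149, adjusted p = 0.00829).

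MSMO1, a sterol oxidase gene, was above background on all controls and on neither Go array, and was at least 1.61-fold lower in Go. IDI1 and MSMO1 did not overlap between groups and were called in each fit without 1 array. MSMO1 was also at least 1.77-fold lower in Go than with enzastaurin (adjusted p = 0.00486). The sterol regulatory element, searched as TCACNCCAC on either strand, stood in 1 of 19 list promoters found, beside 1.15% of all promoters. Of 15 fatty acid synthesis genes 6 were lower and 2 higher, and none of the lower ones was called with the slide as a block. SCD, the stearoyl-CoA desaturase gene, was one of the higher pair, at 8.27, 8.91 and 9.0 in controls and 10.03 and 11.44 in Go, a rise of 2.01 (SE 0.36, adjusted p = 0.00936). The probe was above background on 1 of the 3 controls. Its Go arrays lay 1.41 apart, both above every control, and the enzastaurin mean was 11.24, not called as different from Go.

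Of 22 genes of the cornified envelope and terminal differentiation 6 were lower and 2 higher, a share of 36.4% called, near the 31.9% of all genes. SPRR1A, a cross-linked envelope protein gene, was at 12.30, 12.13 and 12.06 in controls and at 11.05 and 11.46 in Go, and fell by 0.91 (SE 0.162, adjusted p = 0.00927). CDSN, corneodesmosin, was at 7.67, 7.71 and 7.47 in controls and at 7.06 and 7.03 in Go, and fell by 0.57 (SE 0.0978, adjusted p = 0.00848). IVL, involucrin, was at 7.89, 7.58 and 7.40 in controls and at 6.99 and 7.11 in Go, and fell by 0.57 (SE 0.132, adjusted p = 0.0171), but was not called with the slide as a block. Its controls fell along the slide toward the Go level.

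Of 14 stress and simple-epithelial keratins 5 were lower and 2 higher. KRT6C, a keratin of activated keratinocytes that is near-identical to KRT6A and KRT6B, fell by 0.76 (SE 0.112, adjusted p = 0.00602), and differed from enzastaurin by -0.75 (adjusted p = 0.00699). KRT18, a simple-epithelial keratin, was at 14.05, 13.97 and 14.20 in controls and at 14.53 and 14.69 in Go, a rise of 0.54 (SE 0.0946, adjusted p = 0.00872). KRT23 was at 9.15, 8.95 and 8.64 in controls and at 8.14 and 8.23 in Go, and fell by 0.72 (SE 0.134, adjusted p = 0.0102). With enzastaurin KRT23 was lower still, at 6.79 to 6.82, and Go was higher than enzastaurin by 1.38 (adjusted p = 0.0016).

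Of the BCL2 family, which sets the threshold for mitochondrial apoptosis, 7 of 18 members were lower and 1, BID, higher. BAX, a pore-forming member, was at 12.13, 12.03 and 12.02 in controls and at 11.38 and 11.52 in Go, and fell by 0.61 (SE 0.0908, adjusted p = 0.00602). HRK, a BH3-only gene, was at 12.58, 12.44 and 11.55 in controls and at 10.82 and 10.14 in Go, and fell by 1.71 (SE 0.296, adjusted p = 0.00851). The controls of HRK fell along the slide toward the Go level, and it was called in 16 of the 21 fits. Of the 7 lower members, 1 was called in every fit without 1 array. The lower members included pro-apoptotic BAX and HRK and the protective MCL1 and BCL2L1. BBC3 had probes called in both directions, and no direction is given for it, though its brightest probe is among the 7.

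Immediate early and AP-1 genes were split, with 6 of 21 higher and 5 lower. JUNB was at 10.79, 10.58 and 10.62 in controls and at 11.34 and 11.95 in Go, a rise of 0.98 (SE 0.158, adjusted p = 0.00718). JUN, its relative, was at 10.81, 10.63 and 10.46 in controls and at 9.99 and 10.08 in Go, and fell by 0.60 (SE 0.106, adjusted p = 0.00874). DUSP1, a phosphatase gene that shuts off MAP kinases, was at 8.09, 8.02 and 8.0 in controls and at 6.38 and 7.69 in Go, and fell by 1.0 (SE 0.296, adjusted p = 0.0339). DUSP1 was lower on Go 1 than on Go 2, by 1.31, and was above background on 1 of the 2 Go arrays. Of 15 Kruppel-like factors 4 were higher and 4 lower. KLF10, induced by TGF-beta, was at 7.61, 7.45 and 7.47 in controls and at 8.28 and 8.59 in Go, a rise of 0.93 (SE 0.105, adjusted p = 0.00325).

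Cytosolic chaperones gave 4 higher and 2 lower genes of 19. BAG3, a co-chaperone of HSP70, was at 9.61, 9.48 and 9.75 in controls and at 10.43 and 10.62 in Go, a rise of 0.91 (SE 0.101, adjusted p = 0.00303). DNAJA1, an HSP40 co-chaperone, rose by 0.65 (SE 0.0995, adjusted p = 0.00647). CHORDC1, a partner of HSP90, rose by 0.44 (SE 0.0829, adjusted p = 0.0106). Enzastaurin arrays had BAG3 at 10.75 to 10.77, not called as different from Go. FKBP4, an HSP90-bound immunophilin, fell by 0.68 (SE 0.119, adjusted p = 0.00854).

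Of 13 protein kinase C and D genes and partners, the family named in the series title, 4 were lower and 1 higher, against 20.2% and 11.6% of all genes, and none was called in every fit without 1 array. PRKCA was at 6.95, 6.81 and 6.81 in controls and at 6.73 and 6.78 in Go, with a difference of -0.10 (SE 0.0839, adjusted p = 0.377; 95% interval -0.29 to 0.09), and was above background on 1 of the 2 Go arrays. PRKCH was at 9.93, 9.90 and 9.89 in controls and at 9.61 and 9.38 in Go, and fell by 0.41 (SE 0.0908, adjusted p = 0.0154). PRKCB did not pass the filter on dim probes. EGFR and VEGFA were not called, at -0.32 and -0.31, and the sign of VEGFA turned when its probes were averaged.

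Further lists were read against the same shares over all genes. Of 34 hypoxia and glycolysis genes 8 were lower and 1 higher, and with the slide as a block none was called. Of 20 MYC network genes 7 were lower and 3 higher, and of 27 AKT, GSK3 and mTOR genes 6 were lower and 3 higher. Of 20 genes of the unfolded protein response 5 were lower and 1 higher, of 25 p53 targets outside the BCL2 family 6 lower and 2 higher, and of 24 NRF2 targets 2 lower and 3 higher. Of 40 cytoplasmic ribosomal protein genes 5 were higher and 1 lower. Of 16 VEGF family and angiogenic genes 5 were lower and 1 higher, FGFBP1 among the lower. Of the same list, EPAS1, a hypoxia-responsive transcription factor gene, was at 11.78, 11.90 and 11.94 in controls and at 11.09 and 11.24 in Go, and fell by 0.71 (SE 0.0859, adjusted p = 0.00391).

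**Figure D5:**
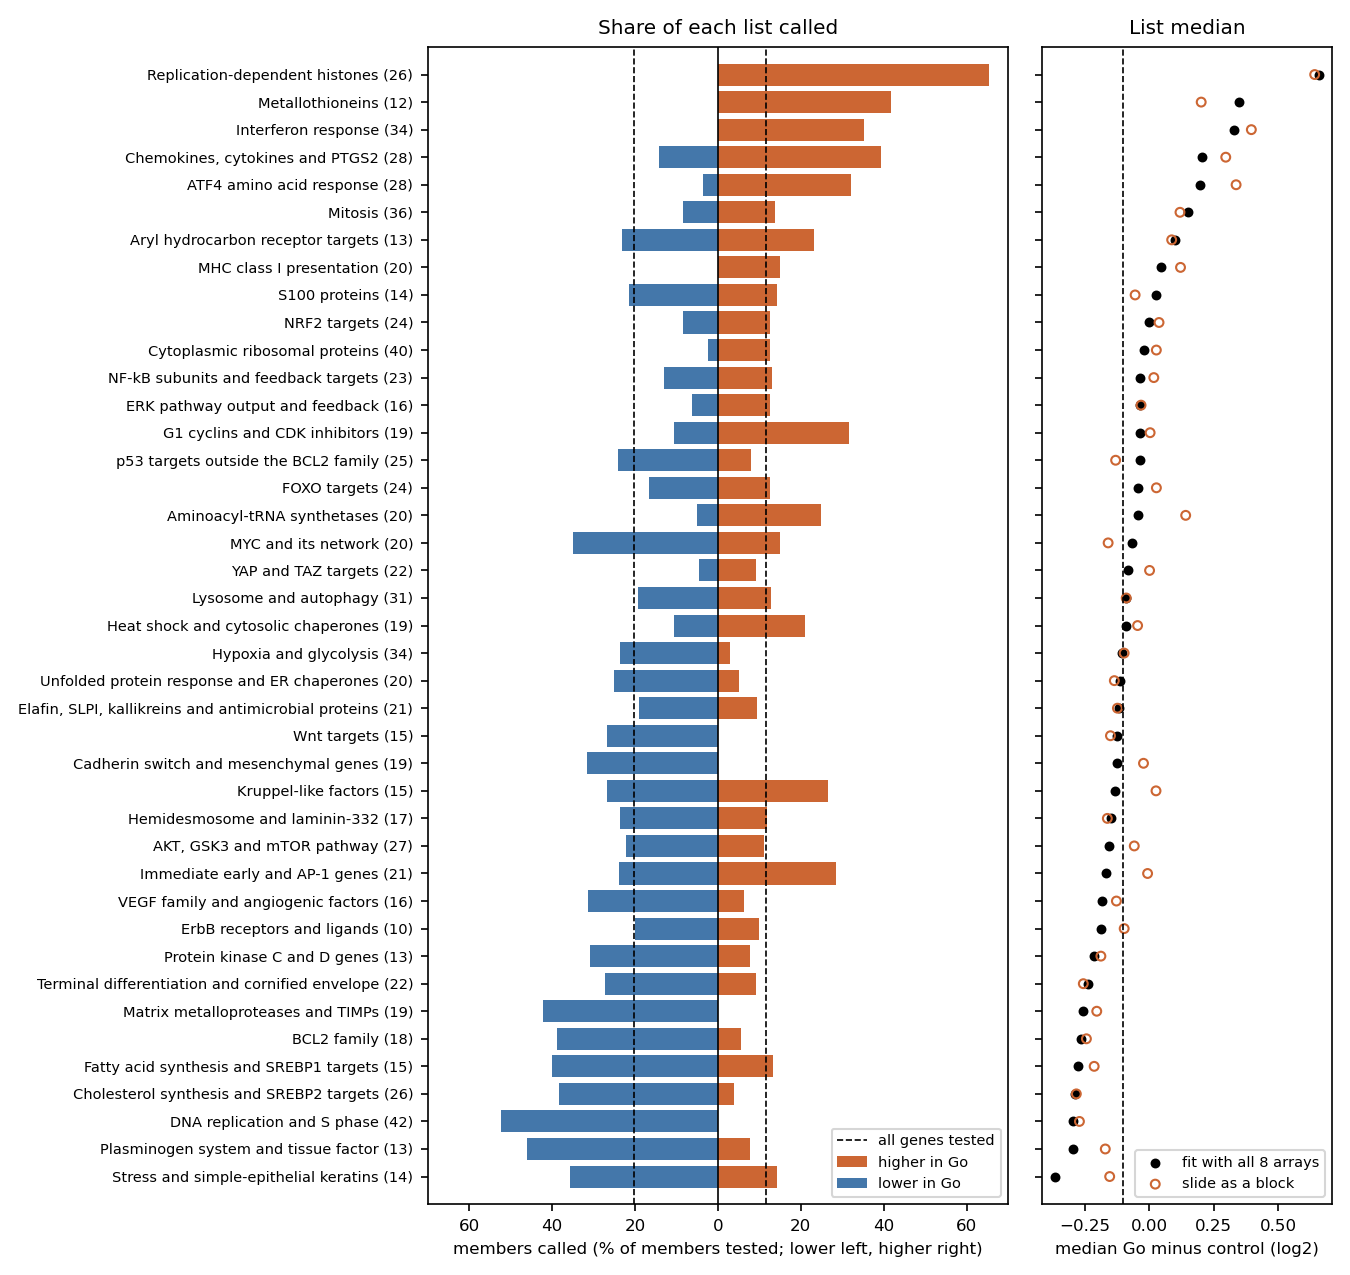
Left, share of the tested members of each of 41 gene lists (number tested in brackets) called higher (orange, to the right) or lower (blue, to the left) in Go, in percent, with dashed lines at the shares over all genes (11.6% and 20.2%). Right, list median of Go minus control on the log2 scale with all 8 arrays (filled) and with the slide as a block (open), and a dashed line at the median of all genes, -0.10.

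The largest differences of all were mostly in genes whose controls already ran toward Go along the slide. PABPC3, an intronless relative of the poly(A)-binding protein gene, was at 5.91, 6.08 and 7.55 in controls and at 10.77 and 11.83 in Go, a rise of 4.79 (SE 0.464, adjusted p = 0.00281). NACA2, an intronless relative of NACA, was at 7.58, 8.38 and 9.11 in controls and at 11.31 and 14.59 in Go, a rise of 4.59 (SE 0.794, adjusted p = 0.00851). FTH1P12, a ferritin heavy chain pseudogene, was at 8.09, 8.58 and 9.33 in controls and at 11.74 and 14.83 in Go, a rise of 4.62 (SE 0.734, adjusted p = 0.00694). In each of these the arrays climbed from control 1 to Go 2 without overlap, and Go 2 lay above Go 1 by 1.06 to 3.27. The PABPC3 probe was above background on 1 of the 3 controls, so its difference is limited by background.

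DGKH, a diacylglycerol kinase gene, was at 5.96, 6.29 and 8.12 in controls and at 10.45 and 11.38 in Go, a rise of 4.12 (SE 0.552, adjusted p = 0.0048). NF2, the merlin tumour suppressor gene, was at 7.84, 8.70 and 10.03 in controls and at 11.74 and 12.65 in Go, a rise of 3.34 (SE 0.526, adjusted p = 0.0069). TPT1P8, ANXA2P3 and TUBB8 rose by 3.05 to 3.50, and each was called in every fit without 1 array. The probes of DGKH, TPT1P8 and ANXA2P3 were above background on 1 of the 3 controls each, so these differences are limited by background too. Among 19 tested genes annotated in RefSeq as pseudogenes 9 were higher and none lower, with a median of 0.55. Among 125 annotated as transcribed pseudogenes 19 were higher and 25 lower, with a median of -0.04. Which copy a probe of such a gene reads is uncertain.

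Among the falls, GNG8, a G protein gamma subunit gene, was at 13.70, 13.87 and 12.82 in controls and at 11.52 and 6.65 in Go, a difference of -4.37 (SE 1.09, adjusted p = 0.021). The Go arrays lay 4.87 apart, more than their mean distance from the controls. FRMD4A, a polarity scaffold gene, was at 11.96, 11.80 and 10.59 in controls and at 8.48 and 8.54 in Go, and fell by 2.94 (SE 0.371, adjusted p = 0.00414). TRIM35 was at 13.77, 13.73 and 12.62 in controls and at 11.17 and 9.55 in Go, and fell by 3.01 (SE 0.467, adjusted p = 0.0067). PRDM10-DT, PRM3, PTGDS, SOX17, PCSK1N, GAS8-AS1 and ACAD10 were lower, with differences of -2.65 to -4.23 and with control 3 the lowest control for all of them. The PRDM10-DT probe was above background on 1 of the 2 Go arrays. GLTPD2, ZNF575, EMILIN1, NKX2-8, TNK2 and PLEKHG5 were lower, with differences of -2.18 to -2.40, and were called in every fit without 1 array.

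The labelled cell type was checked against markers. All 15 squamous epithelium markers were tested and above background on every control and Go array, among them KRT5 and TP63. Of these, 7 were lower in Go, 1 higher and 7 not called, and their summed intensity was 16.85 to 17.05 in controls and 16.66 to 16.74 in Go on the log2 scale. Markers of other cell types passed the filter on dim probes for 4 of 10 fibroblast, 4 of 9 endothelial, 7 of 12 leukocyte, 4 of 7 melanocyte and 6 of 9 secretory genes. Of the first 4 types, COL1A2, PECAM1, PTPRC and TYR did not pass it. Other markers of the same types did, among them COL1A1, DCN and LUM, CDH5 and VWF, CD14 and CD68, and MLANA and PMEL. The summed fibroblast markers were at 8.77 to 9.84 in controls and at 10.48 to 10.72 in Go, a difference carried by THY1, which was higher. The summed melanocyte markers were at 9.92 to 10.57 in controls and at 9.14 to 9.48 in Go, where PMEL was lower. The secretory markers were at 12.20 to 12.43 in controls and at 12.58 to 12.99 in Go, with PIP, OLFM4 and MUC5AC higher and TFF1 lower, though MUC5AC was not well above background on any control. The part of other cell states in the results was not tested.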

How the data were processed

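RNA of 8 samples was hybridised to 1-colour arrays labelled with Cy3, per the labels. The scanner tables are GenePix results, per the file headers. The deposited values are foreground and background intensity per spot, a signal-to-noise score, the percent of saturated pixels, and other columns with spot positions. The scanner's software version and a genome build are not given in the sources used here. In the deposited tables the annotation columns run end for end against the spots: turned, the log2 SD between replicate spots of a probe was 0.448 to 0.52, against 3.4 to 3.78 as deposited. The authors' own deposited values, found by comparison to be linear intensity less background, floored at 0.5 and not normalised, served as an alternative.

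The normexp correction (offset 50) was applied to mean foreground and median background signals, which were then log2-transformed and quantile normalised. Probes with a score above 3 on at least 2 arrays were kept, and the brightest probe stood for a gene. Of 41000 probes 27034 had a symbol, through RefSeq or the file. A 3-group model of all 8 arrays was fitted with limma 3.58.1 in R 4.3.3, without a replicate block, with Benjamini-Hochberg adjustment over 12730 genes; Go was contrasted with control. Standard errors are limma's moderated ones. The script was tested on simulated data. Slides and positions were inferred from mean spot coordinates. A fold against a group not above background is a lower bound.

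The arrays compared and the gene lists were chosen with earlier results of these data known. Genes named were the 10 largest rises and falls among calls above background on all arrays of a group without overlap, the same among genes called in every fit without 1 array, up to 4 called members of each list with the smallest p, and 9 fixed genes (IVL, MKI67, VEGFA, CCND1, EGFR, PRKCB, PRKCA, CYP1B1 and CYP1A1); other called list members are named where a count is spelled out. Alternatives covered blocks, array exclusion, scaling, background correction, filters and probe choice. Some named genes are not reported here.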

Additional observations from a re-analysis of the deposited data

How the results depend on the processing

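The number of genes called in Go against control was 4055, with 1478 higher, 2577 lower and 462 at least 2-fold. Without 1 control or Go array these ranged from 833 to 5514, from 442 to 1933, from 391 to 3581 and from 199 to 743. With the slide as a block they were 833, 442, 391 and 199, with the 5 control and Go arrays alone 385, 277, 108 and 165. Under median scaling 2349 genes were called, 722 of them lower, and 69.3% of calls were higher against 36.4%; the median of all genes was then -0.0034. When the authors' deposited values were used, 796 genes were at least 2-fold. With a replicate block the counts were 4512, 1625, 2887 and 546. Deviations of same-numbered control and Go arrays from their group means correlated at 0.112 and -0.147. With 2 Go arrays the Go deviations mirror each other, so these correlations cannot decide whether the numbers pair the samples. The cause of these shifts was not tested, apart from the fewer arrays in some fits.

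Chosen after seeing the data, slide and position as terms gave 153 calls, 56 higher, 97 lower and 102 at least 2-fold, and control 3 as the only control gave 37, 23, 14 and 28. The counts of Go against enzastaurin, 1066, ranged from 246 to 1693 without 1 array of those groups. When a gene's probes were averaged, 6 named genes turned: FTL to -0.0663, ME1 to 0.17, CTSB to 0.17, PDPK1 to -0.18, NPM1 to -0.20 and VEGFA to 1.49 (adjusted p = 0.0161). Of 3678 values of named genes under an alternative, 2884 kept direction and side of the threshold, 785 lost the call and 3 gained it. The losses were uneven between alternatives. Of 184 named genes, 1 lost the call with a normexp offset of 16. With the 5 control and Go arrays alone 120 lost it, and with slide and position as terms 157. Signal over background limits the dim probes, for which a fold is a bound.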
